A study of Mus musculus with 11 samples.

Results

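The 10 genes described here encode the enzymes that make serine from a glycolytic intermediate and the folate enzymes that carry one-carbon units in mitochondria and in the cytosol. They were taken by gene symbol from tables that list 18667 genes: *Phgdh*, *Psat1* and *Psph* for serine synthesis, *Shmt2*, *Mthfd2*, *Mthfd1l* and *Aldh1l2* for the mitochondrial folate branch, and *Shmt1*, *Mthfd1* and *Aldh1l1* for the cytosolic branch. The set was chosen by pathway, with the FPKM differences between the genotypes in these same libraries already known. The differences below are therefore a description of the 10 genes, and the intervals and limma calls given with them are no independent test. The mice were 2 months old, and each library was made from 1 whole cochlea, 5 of them *Atf6*+/+ (labelled WT) and 6 *Atf6*-/- (labelled ATF6KO). Both groups were littermates on the C57BL/6J background, a strain that itself loses high-frequency hearing with age, and the *Atf6*-/- allele is a premature stop codon present in every cell of the animal. The sex of the single libraries, and whether any 2 cochleae came from the same animal, are not given in the sources used here, so the spread between libraries may be smaller than the spread between animals.

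Cells make serine in 3 steps. PHGDH, the first and committed enzyme, oxidizes 3-phosphoglycerate, PSAT1 transfers an amino group from glutamate, and PSPH removes the phosphate. Serine hydroxymethyltransferases then move a carbon from serine to tetrahydrofolate, which leaves glycine, and the loaded folate is oxidized, released as formate or burned to carbon dioxide by paired sets of enzymes in the mitochondrion and the cytosol. The carbon feeds purine, thymidylate and methionine synthesis and the redox cofactor NADPH. Several of these genes, among them *Phgdh*, *Psat1*, *Shmt2*, *Mthfd2* and *Aldh1l2*, are textbook targets of the stress-induced factor ATF4, and ATF6 is the ER stress sensor removed in these mice.

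The promoters of 4 genes that differed between genotypes and of 1 mitochondrial gene that did not, *Mthfd1l*, are shown because shared sequence was not used to choose the set. Each line gives the 250 bases before the RefSeq start site on mouse assembly GRCm38.p6, read 5′ to 3′ along the gene, and capitals mark a CCAAT box (CCAAT, or ATTGG on the other strand) or the core of an antioxidant response element (TGACNNNGC on either strand).
Phgdh (chr3:98339970-98340219, minus strand): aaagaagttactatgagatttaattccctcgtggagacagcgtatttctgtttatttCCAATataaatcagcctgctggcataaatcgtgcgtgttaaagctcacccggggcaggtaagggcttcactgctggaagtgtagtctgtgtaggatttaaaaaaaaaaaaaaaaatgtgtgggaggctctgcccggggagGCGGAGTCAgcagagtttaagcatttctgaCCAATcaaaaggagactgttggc
Psat1 (chr19:15925060-15925309, minus strand): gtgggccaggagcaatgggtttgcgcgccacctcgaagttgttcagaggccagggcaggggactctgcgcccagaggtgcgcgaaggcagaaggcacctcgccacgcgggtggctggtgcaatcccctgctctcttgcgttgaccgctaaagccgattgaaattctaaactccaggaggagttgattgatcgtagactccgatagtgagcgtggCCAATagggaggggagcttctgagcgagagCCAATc
Shmt2 (chr10:127522445-127522694, minus strand): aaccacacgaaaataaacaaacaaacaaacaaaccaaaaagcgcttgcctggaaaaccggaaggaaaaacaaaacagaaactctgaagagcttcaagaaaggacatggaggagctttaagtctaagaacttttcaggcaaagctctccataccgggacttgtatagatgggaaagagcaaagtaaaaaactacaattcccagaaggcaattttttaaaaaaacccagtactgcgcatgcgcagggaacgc
Mthfd2 (chr6:83317605-83317854, minus strand): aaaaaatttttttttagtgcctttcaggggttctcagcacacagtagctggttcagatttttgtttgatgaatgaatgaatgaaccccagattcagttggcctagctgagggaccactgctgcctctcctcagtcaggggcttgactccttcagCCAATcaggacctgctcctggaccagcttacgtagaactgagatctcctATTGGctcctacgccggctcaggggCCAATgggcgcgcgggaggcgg
Mthfd1l (chr10:3972825-3973074, plus strand): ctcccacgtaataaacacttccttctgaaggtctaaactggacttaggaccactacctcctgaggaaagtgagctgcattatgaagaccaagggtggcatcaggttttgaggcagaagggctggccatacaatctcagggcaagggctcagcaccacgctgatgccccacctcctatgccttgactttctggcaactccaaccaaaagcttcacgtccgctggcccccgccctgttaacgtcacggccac

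Of the 10 genes, 9 had an entry among 32851 RefSeq promoter windows of 27025 genes, *Psat1* with a pair of windows of which the upstream one is printed, and *Aldh1l2* had none. The core of the C/EBP-ATF response element through which ATF4 acts, TGATGNAA, was in none of the 9 genes' windows of 250 bases before and 50 bases after the start, on either strand, and in 3.97% of all windows. The ATF6 site core TGACGTGG was in 0 of the 9 and in 0.676% of all windows. The E-box CACGTG was also in 0 of the 9, against 7.15% of all windows. The antioxidant core was in *Phgdh*, with its first base at position -53 from the start, and in *Psph* at position 5 after the start, against 12.4% of all windows. With only the bases before the start, it was in *Phgdh* alone and in 10.2% of all windows. A CCAAT box was in 7 of the 9 genes (*Phgdh*, *Psat1*, *Psph*, *Mthfd2*, *Shmt1*, *Mthfd1* and *Aldh1l1*) and in 37.4% of all windows, and the GC box GGGCGG was in 6 of the 9 (*Psat1*, *Psph*, *Mthfd1l*, *Shmt1*, *Mthfd1* and *Aldh1l1*) and in 35.7%. The CCAAT and GC boxes were searched after the first 4 motifs, and no matches to different motifs shared a base in the members' windows. Of the mitochondrial genes, *Shmt2* and *Mthfd1l* had no CCAAT box, and the *Shmt2* window was the poorest in G and C of the set, 42.7%, against a median of 59.5% over the members' windows and 52.7% over all windows. A match to these letters is a description of the window, and introns and bases farther upstream were not searched.

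RNA of the targeted gene was lower in every *Atf6*-/- library. *Atf6* (NCBI gene 226641, chromosome 1) averaged 9.52 ± 1.11 FPKM over the 5 *Atf6*+/+ cochleae and 4.27 ± 0.285 FPKM over the 6 *Atf6*-/- cochleae (SD), a log2 fold change of -1.13. FPKM scale the fragments of a gene by its exon length and by the size of the library, so levels can be set beside each other between genes. All fold changes are on the log2(FPKM + 0.1) scale, which understates changes of genes near 0.1 FPKM. Over all genes, the FPKM of a library added up to 474616 to 537926 (*Atf6*+/+) and 462005 to 502419 (*Atf6*-/-). The study's methods state the same planned depth for every library, but the reads counted per library and per gene were not used here, so no counting error is given. None of the 10 genes shares chromosome 1 with *Atf6*.

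RNA of the first pair of serine synthesis enzymes was higher in every *Atf6*-/- cochlea than in any *Atf6*+/+ cochlea. *Phgdh* (gene 236539, chromosome 3) was at 38.37, 43.53, 29.40, 39.40 and 38.69 FPKM in *Atf6*+/+ libraries 1 to 5 and at 47.70, 51.05, 56.67, 55.22, 53.27 and 51.99 FPKM in *Atf6*-/- libraries 1 to 6. The groups did not overlap, and the means were 37.9 ± 5.17 and 52.65 ± 3.18 FPKM, a log2 difference of 0.48 (SE 0.086, 95% interval 0.30 to 0.67) or 1.4-fold. *Psat1* (gene 107272, chromosome 19), the aminotransferase and the most abundant of the 10 RNAs, was at 55.34, 52.46, 36.30, 42.15 and 46.54 FPKM in *Atf6*+/+ libraries and at 57.56, 56.35, 67.44, 57.76, 61.94 and 63.08 FPKM in *Atf6*-/- libraries. Its groups were separated by a narrow gap, from 55.34 FPKM in *Atf6*+/+ library 1 to 56.35 FPKM in *Atf6*-/- library 2, and the log2 difference was 0.40 (SE 0.097, 0.18 to 0.61).

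*Psph* (gene 100678, chromosome 5), which releases serine in the last step, overlapped between genotypes. It was at 8.91, 10.34, 8.12, 11.87 and 10 FPKM in *Atf6*+/+ libraries and at 11.44, 11.79, 12.74, 10.02, 9.83 and 9.84 FPKM in *Atf6*-/- libraries. Only *Atf6*-/- library 3 lay above the highest *Atf6*+/+ library, and the log2 difference was 0.16 with an interval from -0.066 to 0.38. *Atf6*-/- library 3 was the highest library of all 11 for each of the 3 serine synthesis genes, and *Atf6*+/+ library 3 was the lowest.

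In the mitochondrial branch, RNA of 3 of 4 enzymes was higher in all 6 *Atf6*-/- cochleae than in any of the 5 *Atf6*+/+ cochleae. *Shmt2* (gene 108037, chromosome 10) encodes the mitochondrial serine hydroxymethyltransferase. It was at 16.65, 17.40, 18.71, 21.27 and 18.25 FPKM in *Atf6*+/+ libraries and at 23.08, 24.23, 24.50, 22.91, 25.04 and 23.86 FPKM in *Atf6*-/- libraries. The *Atf6*-/- values were tightly grouped, 23.9 ± 0.826 against 18.5 ± 1.76 FPKM, and the log2 difference was 0.38 (SE 0.059, 0.25 to 0.51).

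*Mthfd2* (gene 17768, chromosome 6) encodes the mitochondrial methylenetetrahydrofolate dehydrogenase and cyclohydrolase, best known from embryonic, dividing and stressed cells. Its *Atf6*+/+ values were 10.54, 12.87, 13.49, 12.75 and 10.57 FPKM, and its *Atf6*-/- values were 17.57, 19.47, 17.61, 15.04, 19.21 and 14.98 FPKM. The means were 12.04 ± 1.39 and 17.3 ± 1.95 FPKM, a log2 difference of 0.52 (SE 0.093, 0.32 to 0.72) with no overlap. *Aldh1l2* (gene 216188, chromosome 10), the mitochondrial formyltetrahydrofolate dehydrogenase that turns formyl groups into carbon dioxide and makes NADPH, was scarce. It was at 1.01, 1.29, 1.07, 0.89 and 0.90 FPKM in *Atf6*+/+ libraries and at 1.79, 1.85, 1.60, 1.43, 1.60 and 1.71 FPKM in *Atf6*-/- libraries. The groups did not overlap, and the log2 difference of 0.65 (SE 0.12, 0.39 to 0.90), or 1.57-fold, was the largest of the 10. With a pseudocount of 1 FPKM it was 0.39, below *Mthfd2* at 0.49 and *Phgdh* at 0.47.

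The last mitochondrial enzyme did not follow them. *Mthfd1l* (gene 270685, chromosome 10) encodes the formyltetrahydrofolate synthetase that releases formate for export to the cytosol. It was at 3.82, 5.02, 4.91, 4.71 and 3.40 FPKM in *Atf6*+/+ libraries and at 4.06, 4.03, 3.60, 3.63, 4.07 and 5.13 FPKM in *Atf6*-/- libraries. The groups overlapped throughout, 4.37 ± 0.720 against 4.09 ± 0.555 FPKM, with a log2 difference of -0.089 (-0.35 to 0.18).

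All 3 cytosolic enzymes overlapped between genotypes. *Mthfd1* (gene 108156, chromosome 12), which joins the dehydrogenase, cyclohydrolase and synthetase activities in a single protein, was at 14.24, 12.46, 11.36, 13.34 and 12.43 FPKM in *Atf6*+/+ libraries and at 13.15, 14.75, 13.94, 12.79, 12.62 and 12.11 FPKM in *Atf6*-/- libraries. Its log2 difference was 0.052, and the interval from -0.096 to 0.20 was narrower than that of any other member but *Shmt2*. *Aldh1l1* (gene 107747, chromosome 6), the cytosolic formyltetrahydrofolate dehydrogenase and a common astrocyte marker in brain, was at 8.10, 9.40, 5.20, 7.62 and 8.94 FPKM in *Atf6*+/+ libraries and at 9.18, 10.86, 10.83, 9.12, 6.55 and 9.08 FPKM in *Atf6*-/- libraries. In this gene 2 of 6 *Atf6*-/- libraries lay above the highest *Atf6*+/+ library, and the log2 difference was 0.25 (SE 0.16, -0.099 to 0.59). *Shmt1* (gene 20425, chromosome 11), the cytosolic serine hydroxymethyltransferase, was the scarcest of the 10. It was at 0.40, 0.42, 0.51, 0.33 and 0.38 FPKM in *Atf6*+/+ libraries and at 0.35, 0.49, 0.35, 0.55, 0.24 and 0.42 FPKM in *Atf6*-/- libraries, a log2 difference of -0.044 whose interval ran from -0.46 to 0.37. Its values varied widely between libraries of a genotype.

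**Figure D1:**
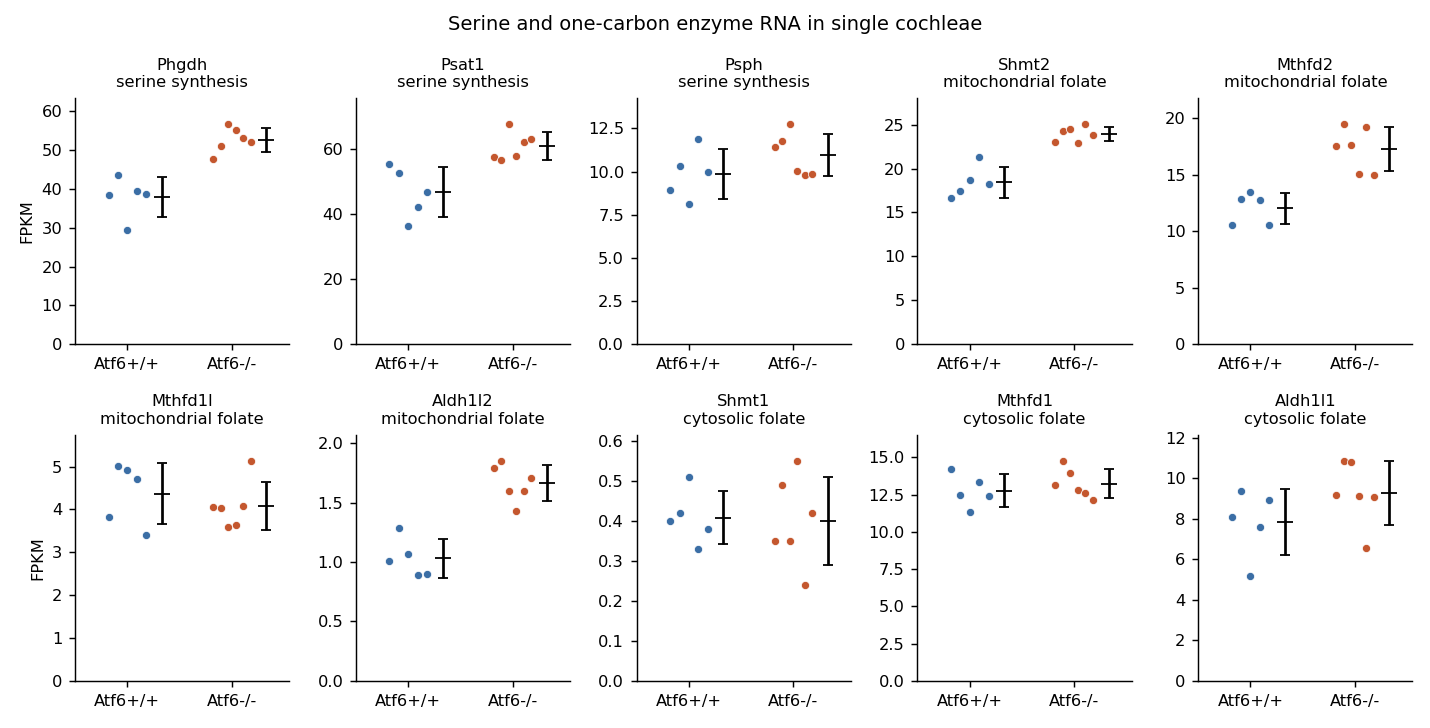
FPKM of the 10 enzymes in each library (vertical axes start at 0), with the mean ± SD of 5 *Atf6*+/+ libraries (blue) and 6 *Atf6*-/- libraries (orange) beside the points. The groups are separate for *Phgdh*, *Psat1*, *Shmt2*, *Mthfd2* and *Aldh1l2* and overlap for the other 5 genes.

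The *Atf6*-/- libraries thus lay wholly above the *Atf6*+/+ libraries for 5 of the 10 genes, and wholly below for 0. Over all 16169 genes that averaged 0.1 FPKM or more, 0.643% lay wholly above and 0.606% wholly below. All 10 genes passed this filter, and each also averaged over 0.1 FPKM within each genotype. The same 5 genes were past the threshold the study set, an unadjusted p of at most 0.05 with a log2 change beyond 0.05. Here and below this threshold is applied to limma, where the study used DESeq2, so the calls are not the study's own. In limma 9.85% of all genes met it in either direction, 4.48% as higher and 5.37% as lower in *Atf6*-/-. That split depended on scaling, at 724 higher and 868 lower here and 1396 and 460 after rescaling to TPM. At an adjusted p under 0.05 (limma, Benjamini-Hochberg over all genes tested), *Shmt2* alone was called, against 0.068% of all genes in either direction and 0.0557% as higher in *Atf6*-/-. *Shmt2* lost that call when any library other than *Atf6*+/+ library 4 was left out, and without *Atf6*+/+ library 3 *Phgdh* was called instead. *Shmt2* also lost it with a pseudocount of 0.01 FPKM, a filter at a mean of 1 FPKM or median-of-ratios scaling. The same held with a block for the replicate number or with bone marrow markers as a covariate. Nothing is read from these counts, since the comparison they come from was known when the genes were chosen. The median log2 change was 0.31 over the 10 genes, 0.40 over the 3 serine synthesis genes, 0.45 over the 4 mitochondrial genes and 0.052 over the 3 cytosolic genes, beside -0.013 over all genes tested. In bulk RNA from a whole cochlea, a change in the number of cells that express a gene and a change in RNA per cell cannot be told apart.

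**Figure D2:**
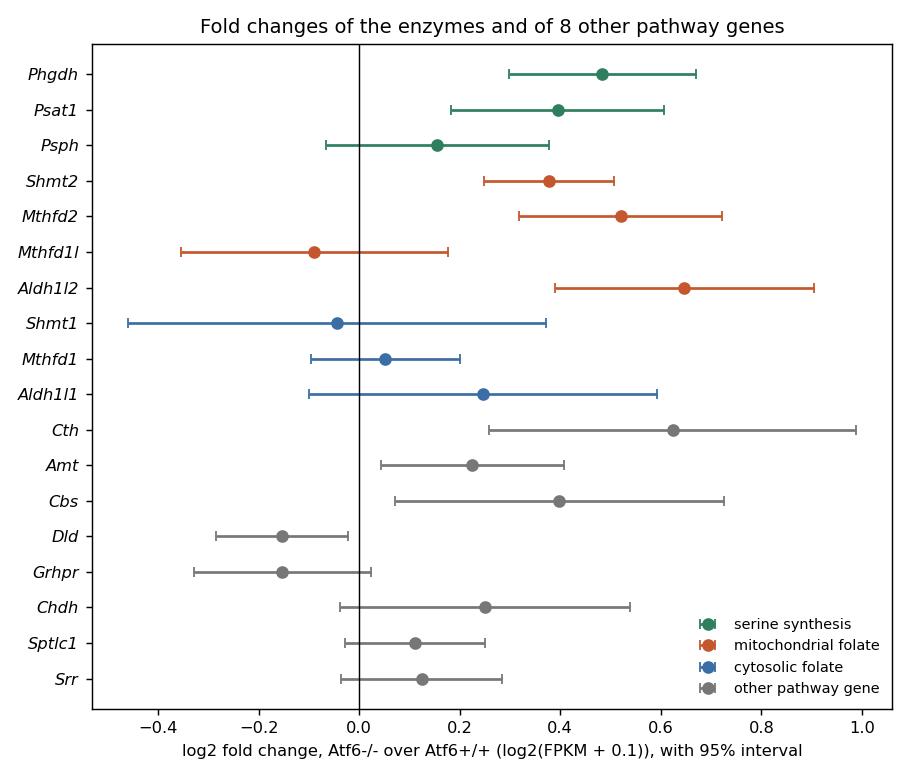
Log2 fold change of *Atf6*-/- over *Atf6*+/+ on the log2(FPKM + 0.1) scale with its 95% interval, for the 10 enzymes (coloured by branch) and for 8 other genes of the pathway (grey). With this pseudocount *Aldh1l2* has the highest of the enzymes' values, 0.65, and the intervals of *Psph*, *Mthfd1l* and the 3 cytosolic enzymes include 0.

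The mitochondrial and the cytosolic enzyme of a reaction were compared within each library, where the plain FPKM ratio does not depend on the scaling between libraries, while the log2 ratios also depend on the 0.1 FPKM added. For the hydroxymethyltransferases, *Shmt2* RNA was 41.6, 41.4, 36.7, 64.5 and 48.0 times *Shmt1* RNA in *Atf6*+/+ libraries and 65.9, 49.4, 70.0, 41.7, 104.0 and 56.8 times in *Atf6*-/- libraries. The mean log2 ratios (with 0.1 FPKM added to each gene) were 5.20 ± 0.27 and 5.62 ± 0.367, and 3 of 6 *Atf6*-/- libraries lay above the highest *Atf6*+/+ library. The wide range rests on *Shmt1*, whose values lie between 0.24 and 0.55 FPKM.

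For the dehydrogenases, *Mthfd2* over *Mthfd1* was 0.740, 1.03, 1.19, 0.956 and 0.850 in *Atf6*+/+ libraries and 1.34, 1.32, 1.26, 1.18, 1.52 and 1.24 in *Atf6*-/- libraries. This was the ratio that separated the genotypes best, with 5 of 6 *Atf6*-/- libraries above every *Atf6*+/+ library and the remaining one, 1.18, just under the highest of them, 1.19. The log2 ratio went from -0.087 ± 0.259 to 0.381 ± 0.127, a difference of 0.468 (SE 0.127). *Mthfd2* RNA was thus about as abundant as *Mthfd1* RNA in *Atf6*+/+ cochleae and exceeded it in all 6 *Atf6*-/- cochleae.

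For the formyltetrahydrofolate dehydrogenases, *Aldh1l2* over *Aldh1l1* averaged 0.137 in *Atf6*+/+ and 0.184 in *Atf6*-/- libraries, a log2 difference of 0.400 (SE 0.197). Only 1 of 6 *Atf6*-/- libraries lay above the highest *Atf6*+/+ library, which was library 3, the one with the lowest *Aldh1l1* value. The synthetase ratio, *Mthfd1l* over *Mthfd1*, averaged 0.346 and 0.312, a log2 difference of -0.141 (SE 0.172), with no *Atf6*-/- library above the highest *Atf6*+/+ library. All 4 ratios overlapped between genotypes. The first 3 were higher on average in *Atf6*-/- cochleae, and the synthetase ratio was lower on average, by 0.055 to 0.232 on the log2 scale as single libraries were left out. With a pseudocount of 1 FPKM, the log2 difference was 0.373 for *Shmt2* to *Shmt1*, 0.441 for *Mthfd2* to *Mthfd1* and 0.171 for *Aldh1l2* to *Aldh1l1*.

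**Figure D3:**
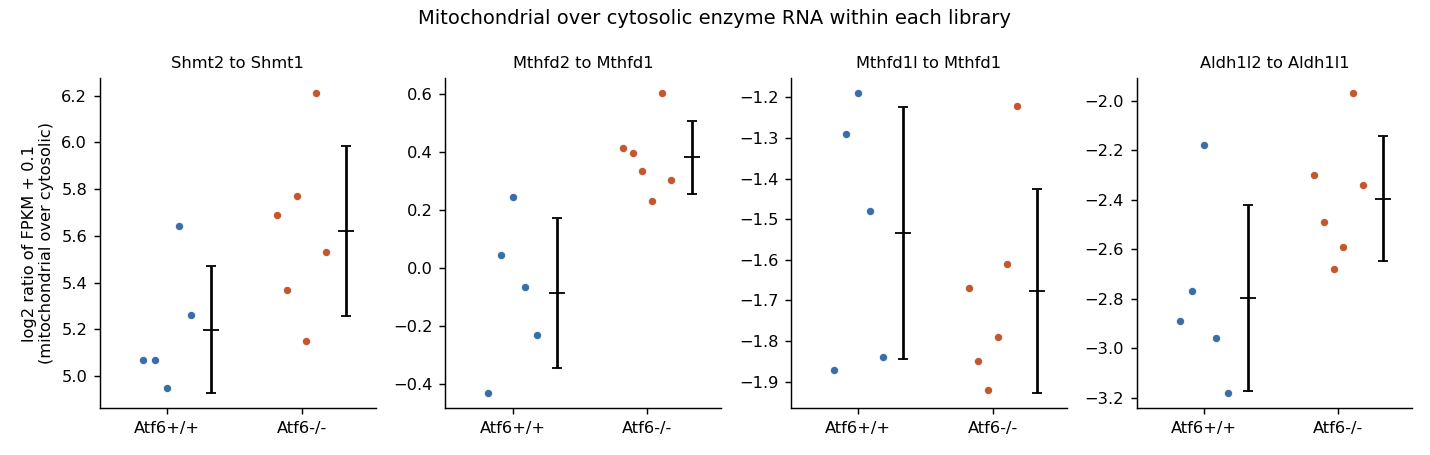
Log2 ratio of mitochondrial to cytosolic enzyme RNA (FPKM + 0.1) within each library for 4 enzyme pairs, with the mean ± SD of 5 *Atf6*+/+ (blue) and 6 *Atf6*-/- libraries (orange). Of the *Atf6*-/- libraries, 5 of 6 lie above the highest *Atf6*+/+ value for *Mthfd2* to *Mthfd1*, 3 of 6 for *Shmt2* to *Shmt1*, 1 of 6 for *Aldh1l2* to *Aldh1l1* and 0 of 6 for *Mthfd1l* to *Mthfd1*.

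By level in *Atf6*+/+ cochleae, the order was *Psat1*, *Phgdh*, *Shmt2*, *Mthfd1*, *Mthfd2*, *Psph*, *Aldh1l1*, *Mthfd1l*, *Aldh1l2* and *Shmt1*, from 46.6 to 0.408 FPKM. *Psat1* and *Phgdh* overlapped in range and stood apart from *Shmt2*, which *Phgdh* exceeded 2.05-fold. *Mthfd1*, *Mthfd2*, *Psph* and *Aldh1l1* formed a run in which each overlapped its neighbour. The last 3 were separate from each other and from the rest, with steps of 1.8-fold down to *Mthfd1l*, 4.24-fold to *Aldh1l2* and 2.53-fold to *Shmt1*. In *Atf6*-/- cochleae, *Mthfd2*, at 14.98 to 19.47 FPKM, stood above *Mthfd1* and no longer overlapped either *Mthfd1* or *Psph*, and the remaining order was as in *Atf6*+/+. FPKM here are per gene, so the mitochondrial and cytosolic products that *Shmt2* can make from alternative starts are counted together.

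Library to library variation within a genotype was not used to choose the genes. On the log2 scale, the SD within genotype was 0.0962 for *Shmt2*, the steadiest of the 10, 0.296 for *Aldh1l1* and 0.277 for the scarce *Shmt1*, against 0.136 for the median gene of at least 1 FPKM. After each library's deviation from its genotype mean was taken, *Phgdh* and *Psat1* deviated together with r = 0.75 over 11 libraries, and with r = 0.39 without *Atf6*+/+ library 3, which was low in both. *Aldh1l1*, a cytosolic folate enzyme, deviated with *Phgdh* (r = 0.66), *Psph* (r = 0.66) and *Mthfd1* (r = 0.59), and without that library these values were 0.18, 0.46 and 0.35. Among the mitochondrial genes, *Mthfd1l* deviated with *Aldh1l2* (r = 0.53), *Shmt2* with *Mthfd2* (r = 0.48) and *Mthfd2* with *Aldh1l2* (r = 0.45), while *Shmt2* and *Aldh1l2* had r = -0.37, which was -0.058 without *Atf6*+/+ library 4. The first 3 of these values stayed between 0.32 and 0.70 as each library was left out. The mean of the 3 serine synthesis genes and the mean of the 4 mitochondrial genes, both of which contain genes higher in *Atf6*-/- cochleae, had r = -0.18 within genotype, which ranged from -0.47 to 0.27 as each library was left out. These correlations describe 11 libraries that share a tissue and a protocol, and several of those of the serine synthesis genes were weaker without 1 of them, *Atf6*+/+ library 3.

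**Figure D4:**
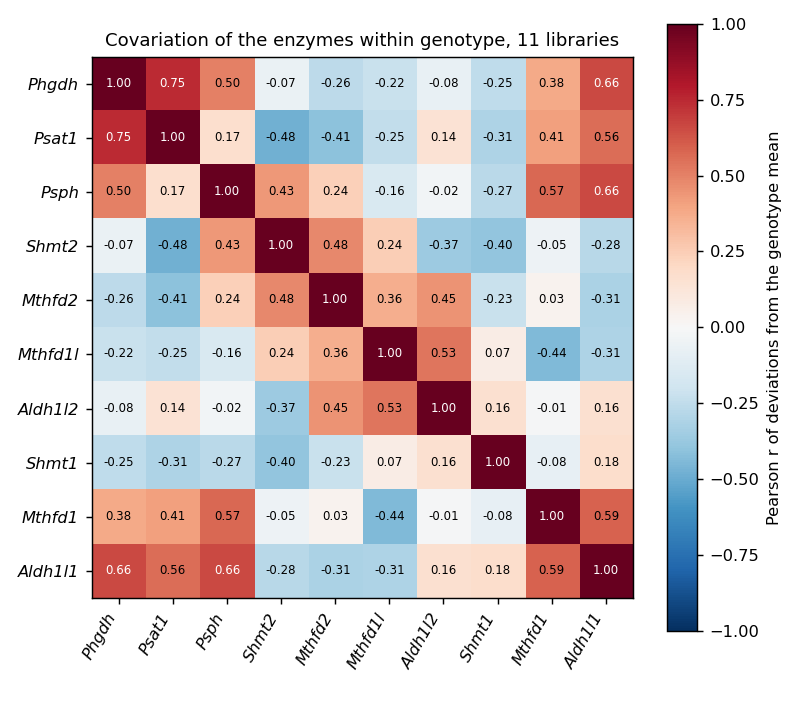
Pearson correlation of the deviations of each pair of enzymes from their genotype means over 11 libraries, from -1 (dark blue) to 1 (dark red), with r printed in each cell. *Phgdh* and *Psat1* have the highest value, 0.75, and *Psat1* and *Shmt2* the lowest, -0.48.

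Of 13602 other genes that averaged 1 FPKM or more, those whose deviations were most like the serine synthesis mean were *Qpctl* (r = 0.929), a Golgi glutaminyl cyclase, *Dcxr* (0.909), a xylulose reductase, *Pter* (0.904), *Slc13a4* (0.902), a sulfate transporter, and *Eda* (0.899), the ligand ectodysplasin. Without *Atf6*+/+ library 3 these fell to between 0.576 (*Dcxr*) and 0.828 (*Eda*). Those most like the mitochondrial mean were *Napg* (r = 0.894), a vesicle fusion factor, *Cep164* (0.874), a centriole protein, *Slc22a23* (0.873), *Ap2b1* (0.868), a clathrin adaptor subunit, and *Mmp24* (0.858), a membrane metalloproteinase. As each library was left out, these values stayed between 0.80 (*Ap2b1*) and 0.964 (*Cep164*). Both lists hold the highest of 13602 values over 11 libraries, and values this high can arise from that choice alone. No relation to these genes was tested. *Atf4* itself, with means of 122.8 ± 14.9 and 139.6 ± 12.6 FPKM in the *Atf6*+/+ and *Atf6*-/- cochleae (log2 change 0.19, adjusted p = 0.495, limma), met the study's threshold at an unadjusted p of 0.0419 with overlapping groups, all 6 *Atf6*-/- libraries lying above the *Atf6*+/+ median. Its deviations had r = 0.228 with the serine synthesis mean and r = 0.148 with the mitochondrial mean. As each library was left out, the first ranged from 0.082 (without *Atf6*-/- library 3) to 0.35 (without *Atf6*+/+ library 3) and the second from 0.0097 (without *Atf6*+/+ library 4) to 0.25 (without *Atf6*-/- library 5). ATF4 is controlled largely in translation, so its RNA is no measure of its protein.

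Among the rest of the pathway, no gene passed an adjusted p under 0.05. Of 50 genes listed from textbook pathways, 47 could be tested with limma, 27 with a log2 change above 0 and 20 with a log2 change below 0. At an unadjusted p under 0.05 in limma there were 4. By the threshold the study set, 3 were higher and 1 lower, 8.51% of the list against 9.85% of all genes tested, and the median log2 change of the list was 0.025. *Cth* and *Cbs* encode the transsulfuration enzymes that spend serine on cysteine. *Cth* was at 0.67, 0.93, 0.68, 0.99 and 1.10 FPKM in *Atf6*+/+ libraries and at 1.32, 1.49, 1.83, 1.30, 1.01 and 1.43 FPKM in *Atf6*-/- libraries, so that only *Atf6*-/- library 5 fell within the *Atf6*+/+ range. Its log2 change was 0.62 (SE 0.17, adjusted p = 0.350, limma), and 0.35 with a pseudocount of 1 FPKM. *Cbs* was at 5.73 ± 0.868 and 7.64 ± 1.58 FPKM with overlapping groups, a log2 change of 0.40 with adjusted p = 0.447 in limma, and it no longer met the study's threshold without *Atf6*+/+ library 3 or with the bone marrow markers (neutrophil, B cell and erythroid) as a covariate.

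In the glycine cleavage system, the mitochondrial complex that passes the carbon of glycine to folate, the members differed in direction. *Amt*, its aminomethyltransferase, was at 6.73 ± 0.306 and 7.92 ± 0.905 FPKM (log2 change 0.22, adjusted p = 0.440), and *Dld*, the dihydrolipoamide dehydrogenase it shares with pyruvate dehydrogenase, was at 45.7 ± 2.29 and 41.2 ± 3.40 FPKM (log2 change -0.15, adjusted p = 0.462, both from limma). *Amt* no longer met the study's threshold with that covariate or with a block for the replicate number. *Dld* no longer met it when *Atf6*+/+ library 1 or 3 or *Atf6*-/- library 4 or 6 was left out, or when values were rescaled to TPM (log2 change -0.098). None of 20 genes of the wider folate cycle and folate transport met it. That group holds *Mthfd2l*, the adult mitochondrial counterpart of *Mthfd2*, with means of 4.396 and 4.12 FPKM in *Atf6*+/+ and *Atf6*-/- (log2 change -0.093, adjusted p = 0.699), a gene singled out after its values were seen. Of 14 genes for methionine and transsulfuration, *Cbs* and *Cth* met it, and of 9 genes that use serine or glycine, none did. The next genes by p were *Grhpr*, *Chdh*, *Sptlc1* and *Srr*, for hydroxypyruvate reduction, choline oxidation, sphingolipid synthesis and D-serine, with log2 changes of -0.15, 0.25, 0.11 and 0.12 and adjusted p of 0.541, 0.541, 0.567 and 0.571. With the bone marrow markers as a covariate these log2 changes were -0.25, 0.052, 0.017 and 0.16. Each of the 4 met the study's threshold in 2 or 3 of the 20 alternatives, *Grhpr* with that covariate among them. Without *Atf6*+/+ library 4, *Grhpr* was at -0.092 and *Srr* at 0.075.

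Mean levels of several cell type markers also differed between genotypes, with summed levels that overlapped in every list. Markers of a cell type can rise and fall together, so their counts in a direction are not separate findings. Over all genes tested, 4.48% were past the study's threshold as higher and 5.37% as lower in *Atf6*-/-. All 8 neutrophil markers had lower mean log2 levels in *Atf6*-/- cochleae, 4 of them past the study's threshold, with summed levels of 273.4 to 3386 FPKM in *Atf6*+/+ and 110.6 to 1294 FPKM in *Atf6*-/- libraries. All 8 erythroid markers were also lower on average, 6 of them past that threshold (3187 to 30280 against 1869 to 6108 FPKM), as were 6 of 7 B cell markers, 3 past it (31.5 to 53.8 against 30.3 to 38.4 FPKM). All 8 markers of dividing cells were lower on average, 2 past it, at 10.1 to 39.9 against 5.28 to 20.3 FPKM. All 8 hair cell markers were higher on average, 2 past it, at 42.5 to 141.9 against 75.6 to 158.8 FPKM. Of 8 markers each, 7 of supporting cells and 7 of the stria vascularis were higher on average and all 8 of bone were lower, with 1 of these, a stria vascularis marker, past the study's threshold. None of the genes of these 8 lists was at 0 in all libraries, and none had an adjusted p under 0.05 in limma. *Atf6*+/+ library 3, the lowest for *Phgdh*, *Psat1*, *Psph*, *Mthfd1* and *Aldh1l1*, was the highest for the neutrophil and the dividing cell markers. Within genotype, the serine synthesis mean had r = -0.54 with the neutrophil mean, -0.68 with that of dividing cells and 0.53 with that of supporting cells, while the mitochondrial mean had r = 0.14 with neutrophils and -0.54 with supporting cells (11 libraries each). Without *Atf6*+/+ library 3, the serine synthesis values were -0.13, -0.25 and 0.29, and those of the mitochondrial mean were -0.079 and -0.45. The value of the mitochondrial mean with neutrophils was 0.64 without *Atf6*-/- library 4. The serine synthesis mean had r = 0.49 with the skeletal muscle mean, and 0.83 without *Atf6*+/+ library 3. Without *Atf6*+/+ library 3, the log2 change was 0.40 for *Phgdh*, 0.31 for *Psat1*, 0.090 for *Psph* and 0.11 for *Aldh1l1*. With the mean log2 level of the neutrophil, B cell and erythroid markers as a covariate, it was 0.38 for *Phgdh*, 0.23 for *Psat1*, 0.036 for *Psph* and 0.014 for *Aldh1l1*, and *Psat1* no longer met the study's threshold. In the same model *Shmt2* stood at 0.43, *Mthfd2* at 0.52 and *Aldh1l2* at 0.57, all within 0.1 of the values without the covariate. *Mthfd1*, *Mthfd1l* and *Shmt1* changed sign, to -0.014, 0.012 and 0.16. The covariate itself differed with genotype, at 3.19 to 5.27 in *Atf6*+/+ and 1.78 to 3.64 in *Atf6*-/- libraries. This model therefore separates it from genotype only in part, and SEs were larger, for *Mthfd2* 0.125 against 0.093.

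**Figure D5:**
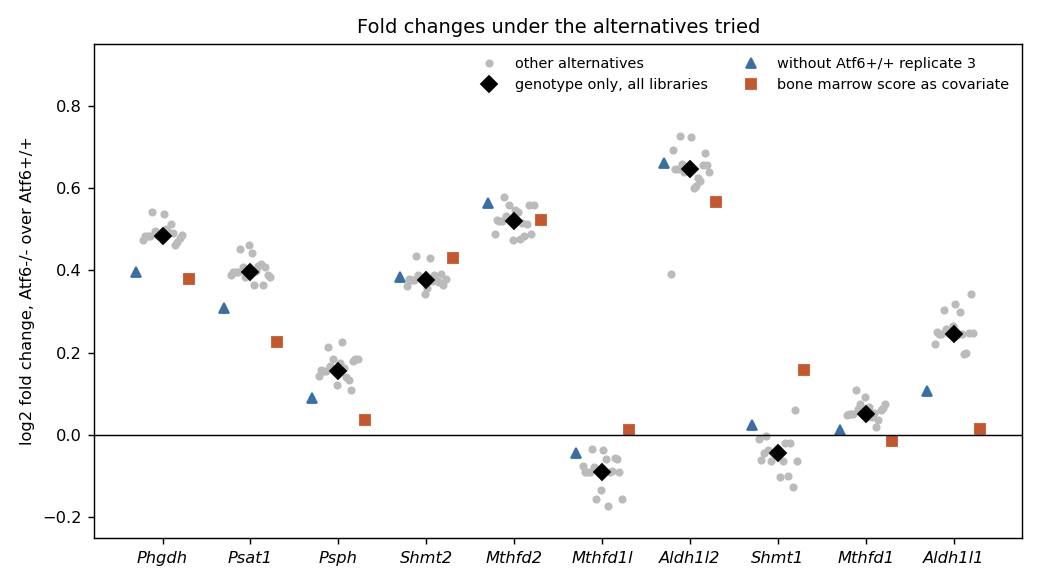
Log2 fold change of *Atf6*-/- over *Atf6*+/+ for the 10 enzymes with genotype as the only term and all 11 libraries (black), without *Atf6*+/+ library 3 (blue), with the bone marrow score as a covariate (orange) and under the other alternatives (grey). *Phgdh*, *Shmt2*, *Mthfd2* and *Aldh1l2* stay above 0.3 throughout, and *Aldh1l1* drops from 0.25 to 0.014 with the marrow score.

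For 6 of the 10 genes the annotation (GENCODE M21, GRCm38) places an exon of a gene on the opposite strand over an exon of the enzyme. The libraries kept strand, but whether the counting used it is not given in the sources used here. For *Psph* the neighbour is *Cct6a*, at 73.95 to 80.0 FPKM in *Atf6*+/+ and 68.97 to 78.14 FPKM in *Atf6*-/- libraries, far above *Psph* itself. For *Shmt1* it is *Smcr8*, at 6.94 to 8.51 and 7.62 to 9.45 FPKM, also far above *Shmt1*. For *Shmt2* it is *Ndufa4l2*, at 4.73 to 7.49 and 4.63 to 6.03 FPKM, and for *Aldh1l2* it is *D10Wsu102e*, at 6.44 to 7.53 and 6.05 to 6.74 FPKM. *Mthfd1* and *Aldh1l1* overlap gene models without a name of known function. *Aldh1l1* also overlaps such a model, *Gm45901*, on its own strand, which counting by strand would not separate. *Phgdh*, *Psat1*, *Mthfd2* and *Mthfd1l* overlap none.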

How the data were processed

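RNA-Seq was done on 11 whole mouse cochleae, and the deposited values are FPKM per gene and library with 2 decimals. According to the submitters' processing notes and the study's methods, the authors aligned stranded mRNA reads to GRCm39 with HISAT2 2.0.4, estimated FPKM with RSEM and tested genes with DESeq2 1.4.5. The files hold 1 table per genotype, which were joined by NCBI gene identifier. FPKM are scaled within each library and not within a table. The members and gene lists were chosen with earlier results of these data known.

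The model was fitted to log2(FPKM + 0.1) of genes averaging 0.1 FPKM or more, by limma 3.58.1 in R 4.3.3 with its trend option, genotype as the only term, two-sided, and Benjamini-Hochberg adjustment. The step was tested on simulated data. Intervals and SEs are from this model, except for the ratios within a library, whose SEs come from the SDs of the groups. Named genes were the 10 members, *Atf6*, *Atf4*, the 8 other pathway genes with the smallest p, and the 5 genes most like each member mean. Of 50 other pathway genes, *Ftcd*, *Mat1a* and *Agxt* could not be tested. Motifs were searched in RefSeq windows of GRCm38.p6. The marker lists whose levels are not given with the results had summed FPKM of 6403 to 7241 in *Atf6*+/+ and 6485 to 7889 in *Atf6*-/- for peripheral glia, 234.5 to 1422 and 189.7 to 610.8 for bone, 619.5 to 820.3 and 528.7 to 732.8 for skeletal muscle, 5.04 to 65.5 and 4.81 to 7.96 for adipocytes, 605 to 1207 and 862.6 to 1545 for supporting cells, and 373.5 to 703.5 and 437.2 to 807.9 for the stria vascularis. Of these, 6 of 8 glial markers were higher on average in *Atf6*-/-, and 4 of 7 muscle and 5 of 6 adipocyte markers were lower. Past the study's threshold were 1 glial marker as higher, 1 muscle marker as lower, and 1 adipocyte marker as higher and 2 as lower. The highest adipocyte sum was in *Atf6*+/+ library 4. *Myh4*, *Myh2*, *Adipoq*, *Plin1*, *Cidec*, *Cfd* and *Retn* were at 0 in some libraries.

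Alternatives were pseudocounts of 1 and 0.01 FPKM, no filter, a filter at a mean of 1 FPKM, rescaling to TPM or by median of ratios, a block for the replicate number, robust variance, the bone marrow score, and 11 fits that each left out 1 library. The adjusted calls of the members, the CCAAT and GC boxes, and the correlations without single libraries were added after values were seen. Python 3.11.15, numpy 2.4.6, pandas 2.3.3 and matplotlib 3.10.9 were used for the other steps.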

Additional observations from a re-analysis of the deposited data

Results flagged for a closer look

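*Mthfd1l* in *Atf6*-/- library 6 stood at 5.13 FPKM, away from the other 5 *Atf6*-/- libraries, of which the next highest was at 4.07 FPKM. The gap was 0.693 of the range of the group. Of 22 groups checked, 1 met this criterion, which chance meets in about 1 in 20. Without that library the log2 change of *Mthfd1l* was -0.16.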

How the results depend on the processing

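Of 199 values of the members' log2 changes under alternatives, 198 moved by less than 1 SD between libraries of a genotype. None of the called ones reversed. This SD is wider than the SE of a log2 change, and the filters and robust variance cannot change these values, so the count is a weak check. With the bone marrow score, *Psat1* at 0.23 and *Aldh1l1* at 0.014 still counted as unmoved. The log2 change of *Aldh1l2* moved to 0.39 with a pseudocount of 1 FPKM. The signs of *Shmt1*, *Mthfd1* and *Mthfd1l*, whose groups overlapped, were not stable. *Shmt1* has no value under the filter at 1 FPKM. The threshold the study set held the same 5 members in 16 of 20 alternatives, and between 4 and 6 in the others. The adjusted call of *Shmt2* held in 5 of 20: the number of members called was 1, and it was 0 with a pseudocount of 0.01 FPKM, a filter at 1 FPKM, median-of-ratios scaling, the replicate block or the bone marrow score, 2 with TPM and 0 to 1 as single libraries were left out. The median log2 change of the members, 0.31, was 0.19 with the bone marrow score and 0.21 to 0.35 as single libraries were left out, lowest without *Atf6*+/+ library 3. Of the other pathway genes, 7 met the study's threshold with TPM and 7 with the bone marrow score, against 4, and 3 to 6 as libraries were left out. With the score *Cbs* and *Amt* no longer met it. Over all genes, 11 had an adjusted p under 0.05, 4 with the replicate block, 6 with the bone marrow score and 8 to 13 as libraries were left out. The study's threshold was met by 1592 genes, by 888 with the bone marrow score and by 1078 with the block, and TPM changed the split from 724 higher and 868 lower to 1396 and 460 (874 and 762 with median-of-ratios scaling). The antioxidant core was in 2 members, and in 1 with only the bases before the start. Deviations of libraries with the same replicate number had r of 0.095, -0.122, -0.211, 0.119 and -0.040. These were not set beside libraries with different numbers, so a weak pairing could go unseen. Under the block *Amt* was the other pathway gene that no longer met the study's threshold. No counting error could be given, which bears most on the scarce genes *Shmt1* and *Aldh1l2*.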
